A study of Rattus norvegicus with 8 samples.

Results

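The cytosolic and mitochondrial chaperone families were followed across 4 constructs in H9C2 cells, a cardiomyoblast line from the heart of rat embryos. Members were all features whose name begins with Hspa, Hspb, Hspd, Hspe, Hsph, Dnaja, Dnajb, Dnajc, Bag or Cct and a digit, or with Hsp90a, the paralog letter and a digit. Hspa5, Dnajb9, Dnajb11 and Dnajc3 of the endoplasmic reticulum were left out, and at least 10 exon reads were asked for in 2 libraries. Of 32258 features, 86 carried such a name, 4 were left out by name, 17 fell under the read minimum and 65 remained as members. They comprised 1 HSP110 (Hsph1), 8 HSP70, 4 DNAJA, 7 DNAJB, 23 DNAJC, 1 HSP60 (Hspd1), 7 CCT, 2 HSP90, 6 small heat shock protein and 6 BAG genes. Families follow the gene names, so Hspa4, a nucleotide exchange factor related to HSP110, is counted as HSP70.

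For 2 days the cells bore a pDC316 vector, brought in by transduction, that carried YFP fused to PPARα, the nuclear receptor for fatty acids, or YFP alone. The receptor held aspartate at residue 280, which mimics a phosphorylated serine (S280D), alanine there, which cannot be phosphorylated (S280A), or its own serine (WT), and YFP alone (YFP) was the control of all 3. Every group therefore carried the vector and YFP, and the receptor was overproduced in the 3 construct groups. Poly(A) RNA of 2 libraries a group was sequenced. The labels do not say whether both libraries of a group are separate cultures, and p-values therefore measure only the spread between these libraries.

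Chaperones of these families pass unfolded proteins along a relay. J-domain proteins (DNAJ) hand clients to HSP70 and trigger its ATP hydrolysis, HSP110 and BAG proteins drive the release of nucleotide, and HSP90, the ring of HSP60 and the cytosolic ring CCT (also called TRiC) take clients onward, while small heat shock proteins hold unfolded chains without ATP. Under proteotoxic stress heat shock factor 1 binds repeats of GAA in promoters of many of these genes, and in muscle HSPB1, HSPB6, BAG3 and the J-domain protein DNAJB6 are known for the upkeep of the sarcomere.

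The name rule also took in proteins that are known residents of the endoplasmic reticulum, namely Hspa13, Dnajb12, Dnajb14, Dnajc1, Dnajc10, Dnajc14, Dnajc16, Dnajc18 and Dnajc25, so the words cytosolic and mitochondrial cover the set only in part. Hspa9, Hspd1, Dnaja3, Dnajc11, Dnajc15, Dnajc19 and Dnajc30 are mitochondrial. The stress-inducible genes Hspa1a and Hspa1b were listed at 0 reads in all libraries and were among the 17 under the minimum. Whether their RNA was absent or their reads were lost in counting was not tested. Hspe1, the partner of Hspd1, was not analysed here. Just inside the minimum stood Hspb8, with 2 to 12 reads a library and 2 libraries at the minimum. Just outside stood Cct6b, with 0 to 28 reads and 1 library at the minimum, and Hspb9, with 0 to 14 reads and 1 library.

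The heat shock element is the motif most closely tied to these families, so the promoters that hold it are shown. RefSeq promoters of the GRCr8 assembly, 250 bases before to 50 after each gene start, were matched by symbol or, failing that, by synonym for 53 of the 65 members. The 3-unit element GAANNTTCNNGAA was searched on both strands and found in 5 of the 53, or 9.43%, against 0.736% of all 27457 promoters. The lines give 30 bases around each match, 5′ to 3′ on the strand of the gene, with the element in capitals. Hspa8 held a pair of matches, and in Hspd1 a pair of overlapping matches runs together.
Hsph1, chr12:10427324-10427353 (plus strand), 36 bases before the start: gccgcagaTTCTGGAAAGTTCtcctcagta
Hspa8, chr8:50080293-50080322 (plus strand), 213 bases before: gcgagcgtGAAAGTTCCAGAAcgctgcggt
Hspa8, chr8:50080451-50080480 (plus strand), 55 bases before: cggaacccTTCTGGAAGGTTCtaagacagg
Hspd1, chr9:64084258-64084287 (minus strand), 242 bases before: gcggggccTTCCGGAAGGTTCTAGAAccga
Dnaja1, chr5:60638405-60638434 (plus strand), 10 bases after: gccgggcgGAACTTTCCAGAAcgctcggtg
Cct4, chr14:101193074-101193103 (plus strand), 26 bases after: gcgtcgctTTCTGGAAGGTTCgtggaggcg

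Shorter forms were more common. The facing pair GAANNTTC, which overlaps the 3-unit form, stood in 13 of the 53 member promoters (24.5%, against 8.34% of all), among them those of Hspa9, Hspb1, Hspb6, Bag3 and Dnajb1. The back-to-back pair TTCNNGAA stood in 12 (22.6%, against 8.49%). The perfect PPARα response element AGGTCANAGGTCA was found in 0 of the 53 and in 0.0583% of all promoters. The CCAAT box was present in 39.6% of the member promoters and 37.7% of all, and TATAAA in 7.55% and 14.3%. A match describes letters in the window and no binding was measured.

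Exon reads totalled 14018785 to 39526013 a library. Ppara stood at 12382 to 24134 CPM (reads per library size, scaled by the trimmed mean of M-values) in the construct libraries. In the YFP libraries it stood at 59.5 to 74.4 CPM. Both ends of the construct range were WT libraries, with replicate 1 lowest and replicate 2 highest. The part of the Ppara level in the results of the members was not tested. Among markers of the line, Tnnt2 averaged 200 CPM, but Des, Myog, Myod1, Myf5 and Actc1 each averaged under 1 CPM. The 4 fibroblast markers, nearly all from Col1a1, summed to 21831 and 23745 CPM in S280D, 28605 and 34465 CPM in S280A, 19124 and 22666 CPM in WT and 29334 and 34690 CPM in YFP, so S280D and WT lay below S280A and YFP. Col1a1 was called lower in S280D against S280A (log2 fold change -0.47), in S280D against YFP (-0.49) and in WT against YFP (-0.62), and higher in S280A against WT (0.60). The split is that of Col1a1 alone. Thy1 averaged 155 CPM, Dcn 23.3 CPM and Pdgfra 0.191 CPM. Thy1 and Dcn did not divide the groups in this way, and Dcn was higher in S280D than in S280A. The part of the Col1a1 split in the results of the members was not tested. The 5 cardiomyocyte markers summed to 1.29 to 3.81 CPM, the 3 endothelial markers found to 0.421 to 1.35 CPM and the 4 leukocyte markers to 0 to 1.31 CPM. The file headers name 2 lanes. The first held both YFP libraries with S280A replicate 2 and S280D replicate 1, and the second held both WT libraries with S280A replicate 1 and S280D replicate 2.

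On the authors' RPKM scale, which is per length and allows genes to be compared, Hsp90ab1, the constitutive cytosolic HSP90, stood far above every other member at a mean of 647 over the 8 libraries. Cct3 (190), Cct5 (179), Hspa9 (176), Hspd1 (161), Cct6a (157), Cct4 (142), Cct7 (122), Cct2 (116), Hspb1 (113) and Hsph1 (112) followed, so 11 members lay above 100 RPKM. Within each of these neighbouring pairs the levels over libraries overlapped, except between Hsp90ab1 and Cct3. The order differed between the mutants. In S280D Hspa9 averaged 208 ± 29.7 RPKM and Cct3 170 ± 3.91 RPKM (SD, n = 2 each), while in S280A Hspa9 averaged 131 ± 21.8 RPKM and Cct3 197 ± 3.58 RPKM. At the low end 8 members lay under 1 RPKM, among them Hspa8, Hsp90aa1, Hspa2, Hspb7 and Hspb8.

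Low values of some members have a counting limit. Hspa8, the constitutive HSP70 of the cytosol, had 27 to 42 exon reads a library and Hsp90aa1, the inducible HSP90, had 19 to 33, and no read of either was unique. The table places Hspa8 on chromosome 5, whereas the RefSeq promoter shown lies on chromosome 8. The counted locus, 99031012 to 99033107, is filled by its exon length of 2095 bases and had 0 intron reads. Its values therefore cannot be taken as those of the gene whose promoter is shown. The levels of Hspa8 and Hsp90aa1 are uncertain, and so is that of Bag5, the other member without a unique read. Reads were shared with other places for Dnajc19 (42.9% unique), Dnajb6 (50.8%), Hspd1 (61.3%), Hspa9 (63.3%), Bag4 (73.0%) and Cct7 (76.2%). The strand setting of the counting is not stated, so reads of overlapping antisense genes cannot be told apart from those of a member.

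**Figure D1:**
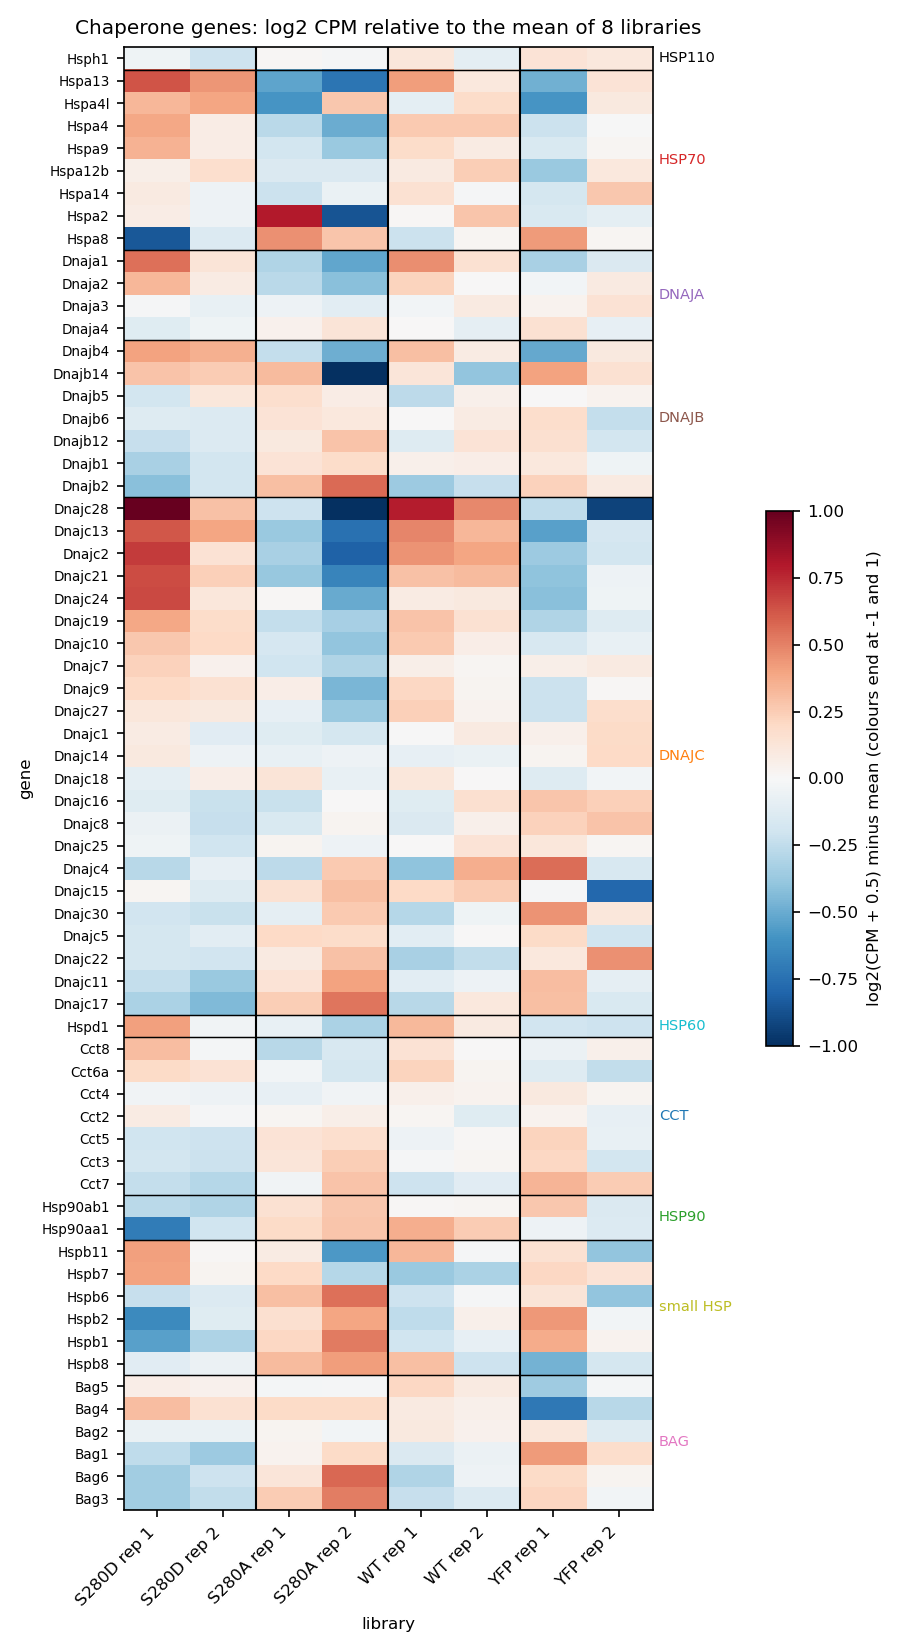
Rows are the 65 members grouped by family and columns the 8 libraries, with S280D at the left and YFP at the right. Colour is log2(CPM + 0.5) minus the mean of the 8 libraries. S280D and WT columns share red in Hspa13, Dnaja1, Dnajc13, Dnajc2 and Dnajc21, where S280A and YFP replicate 1 are blue, and the reverse holds for Hspb1, Bag3 and Dnajb2.

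Exon reads were tested for all 12407 features that passed a filter on low counts, all 65 members among them, with edgeR's quasi-likelihood test over all 8 libraries and Benjamini-Hochberg adjustment, and a gene was called at an adjusted p under 0.05. The receptor mutants gave the most calls. In S280D against S280A 13 members rose and 14 fell, or 41.5% of the members, where 39.3% of all features were called, so the share was near the background. The median log2 fold change was -0.05 over the members and -0.01 over all features. In bulk RNA fewer cells of a type and less RNA per cell cannot be told apart.

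Calls by direction are given for each family, most of them from few genes, and differences between families were not tested. Of the HSP70 genes 3 of 8 rose and 0 fell, and of the 34 J-domain genes 9 rose and 4 fell. Small heat shock protein genes had 0 risen and 3 fallen of 6, BAG genes 0 and 3 of 6, CCT genes 1 and 3 of 7, and HSP90 genes 0 and 1 of 2. Hsph1 and Hspd1 did not pass. Of all features 21.3% rose and 18% fell, beside 26.5% and 11.8% of the J-domain genes. With an offset for exon length, described below, Hspa4, Hspa9, Dnajc10, Dnajc7 and Cct8 no longer passed.

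**Figure D2:**
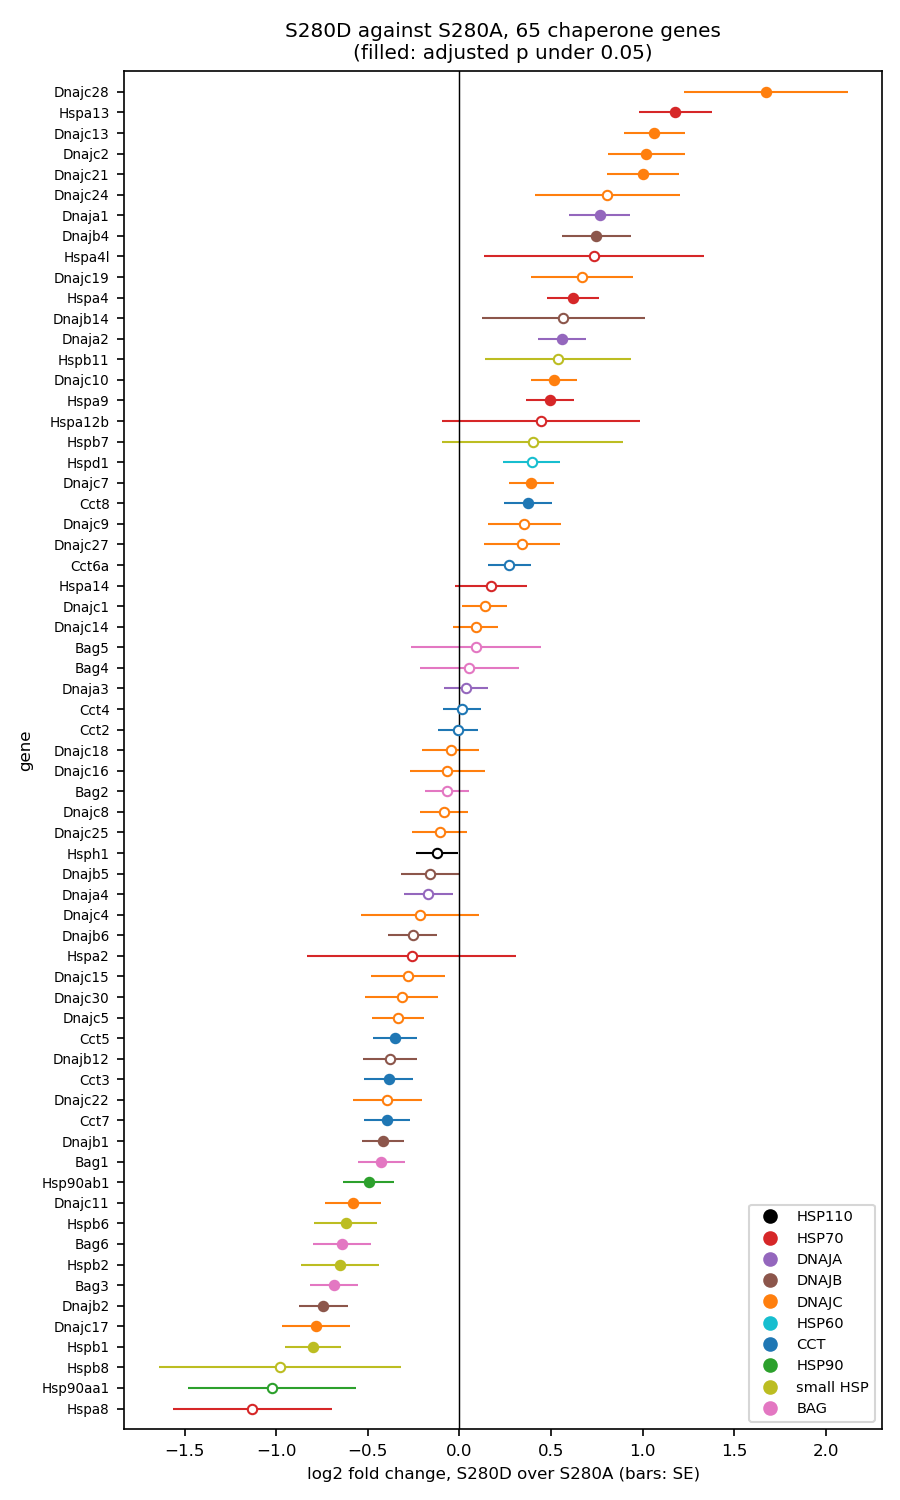
Points are log2 fold changes of the 65 members in S280D over S280A, ordered by size, with bars for the SE and colour for the family; filled points had an adjusted p under 0.05. HSP70 and most J-domain genes that passed lie to the right of 0, and small heat shock protein and BAG genes that passed lie to the left.

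Hspa13 (chromosome 11, 14144129 to 14160892 in Rnor_6.0), a microsomal ATPase of the HSP70 family, stood at 68.3 and 59.7 CPM in S280D, 30.3 and 26.2 CPM in S280A, 58.9 and 47.4 CPM in WT and 31.4 and 48.4 CPM in YFP. Both S280D libraries lay above the other 6, the lower one closely followed by WT replicate 1, and both S280A libraries were the lowest. The rise over S280A was 1.18 ± 0.20 on the log2 scale (SE, edgeR adjusted p = 0.00232), and 1.36 and 0.97 between libraries of the first and second lane.

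Hspa4 (chromosome 10, 38601623 to 38642397), a nucleotide exchange factor related to HSP110, held 311 and 250 CPM in S280D, 197 and 168 CPM in S280A, 285 and 285 CPM in WT and 204 and 238 CPM in YFP. Hspa9 (chromosome 18, 27731071 to 27749235), the mitochondrial HSP70 that pulls proteins through the inner membrane, held 724 and 597 CPM in S280D, 499 and 439 CPM in S280A, 645 and 600 CPM in WT and 511 and 576 CPM in YFP. For both genes the S280D and S280A libraries did not overlap, and S280A was lowest. Against S280A Hspa4 rose by 0.62 ± 0.14 (edgeR adjusted p = 0.00688) and Hspa9 by 0.49 ± 0.13 (edgeR adjusted p = 0.0138) on the log2 scale. Within lanes the differences were 0.88 and 0.34 for Hspa4 and 0.72 and 0.26 for Hspa9.

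The partners of these HSP70s differed among themselves. Hsph1 (chromosome 12, 6322667 to 6341902), the cytosolic HSP110, held 435 and 387 CPM in S280D, 452 and 443 CPM in S280A, 486 and 419 CPM in WT and 491 and 481 CPM in YFP, with a log2 fold change of -0.12 ± 0.12 over S280A (edgeR adjusted p = 0.428). Hspa8, with its uncertain reads, had -1.13 ± 0.43 (edgeR adjusted p = 0.0575). Hspa14, the ribosome-bound HSP70, and the sparsely read Hspa2, Hspa4l and Hspa12b did not pass either.

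Among J-domain genes the median log2 fold change was 0.30 over the 4 DNAJA, -0.26 over the 7 DNAJB and 0.09 over the 23 DNAJC genes, and the largest single rises were in DNAJC genes. Dnajc13 (chromosome 8, 112698347 to 112807598), the endosomal partner of HSP70 also called RME-8, stood at 148 and 126 CPM in S280D, 74.1 and 57.0 CPM in S280A, 135 and 121 CPM in WT and 65.9 and 85.4 CPM in YFP. All 4 S280D and WT libraries lay above all 4 S280A and YFP libraries, the reverse of Col1a1. Its rise over S280A was 1.06 ± 0.17 on the log2 scale (edgeR adjusted p = 0.00185), and 1.37 and 0.77 within the first and second lane.

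Dnajc2 (chromosome 4, 9882903 to 9908689), which docks HSP70 at the ribosome, held 43.6 and 29.5 CPM in S280D, 21.1 and 15.0 CPM in S280A, 36.6 and 35.2 CPM in WT and 20.6 and 23.4 CPM in YFP. Dnajc21 (chromosome 2, 60419524 to 60446510), a factor of ribosome assembly, held 28.1 and 20.9 CPM in S280D, 13.5 and 11.03 CPM in S280A, 21.7 and 22.1 CPM in WT and 13.3 and 17.1 CPM in YFP. These ribosome-linked J-domain genes split the libraries in the same way as Dnajc13. Dnajc2 rose by 1.02 ± 0.21 (edgeR adjusted p = 0.00483) and Dnajc21 by 1.00 ± 0.20 (edgeR adjusted p = 0.00403) over S280A on the log2 scale. Within lanes the log2 differences were 1.51 and 0.47 for Dnajc2 and 1.31 and 0.62 for Dnajc21.

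Dnajc28 had the largest fold change of the members that passed, on few reads. It held 10.2 and 5.19 CPM in S280D, 3.51 and 1.29 CPM in S280A, 7.50 and 5.96 CPM in WT and 3.40 and 1.94 CPM in YFP, from 16 to 421 reads a library. The log2 fold change over S280A was 1.67 ± 0.45 (edgeR adjusted p = 0.0139), but 2.58 in the first lane and 0.50 in the second.

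In the DNAJA and DNAJB classes Dnaja1 (chromosome 5, 57028466 to 57039378), a main J-domain partner of cytosolic HSP70, stood at 168 and 125 CPM in S280D, 92.7 and 79.7 CPM in S280A, 158 and 127 CPM in WT and 91.1 and 104 CPM in YFP. Its rise over S280A was 0.76 ± 0.17 on the log2 scale (edgeR adjusted p = 0.00587). Dnaja2 rose by 0.56 ± 0.13 and Dnajb4 by 0.75 ± 0.19 on the same scale (edgeR adjusted p = 0.00827 and 0.0109). Dnaja3, the mitochondrial J-domain protein that serves Hspa9, had a log2 fold change of 0.03 ± 0.12, and its libraries overlapped between the groups. Dnajc10, an endoplasmic reticulum reductase, rose by 0.51 ± 0.12 (edgeR adjusted p = 0.00942), and Dnajc7, which links HSP70 and HSP90, by 0.39.

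Other J-domain genes fell in S280D. Dnajb1 (chromosome 19, 24747177 to 24750919), the classical heat-inducible J-domain protein, held 85.7 and 94.5 CPM in S280D, 118 and 122 CPM in S280A, 111 and 113 CPM in WT and 115 and 104 CPM in YFP. Both S280D libraries were the lowest of the 8, and the log2 fold change over S280A was -0.42 ± 0.11 (edgeR adjusted p = 0.0153). Dnajb2 (chromosome 9, 82436457 to 82444668), which delivers ubiquitinated clients to the proteasome, held 82.2 and 96.6 CPM in S280D, 136 and 163 CPM in S280A, 85.3 and 93.6 CPM in WT and 129 and 117 CPM in YFP. S280D and WT lay together below S280A and YFP, as in Col1a1, and the log2 fold change over S280A was -0.74 ± 0.14 (edgeR adjusted p = 0.00298). Dnajc17, a nuclear protein of splicing, fell by 0.78 ± 0.19 and Dnajc11, of the mitochondrial outer membrane, fell by 0.58 on the log2 scale.

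The small heat shock protein and BAG genes that passed all fell. Hspb1 (chromosome 12, 23839398 to 23841049), the rat HSP27, held 77.5 and 91.5 CPM in S280D, 131 and 163 CPM in S280A, 98.5 and 107 CPM in WT and 147 and 116 CPM in YFP. Its log2 fold change over S280A was -0.80 ± 0.15 (edgeR adjusted p = 0.00373), or -1.07 in the first lane and -0.52 in the second. Hspb6, HSP20 of muscle, held 46.9 and 50.1 CPM in S280D, 68.0 and 81.2 CPM in S280A, 47.7 and 54.8 CPM in WT and 60.3 and 41.8 CPM in YFP. Here the S280A libraries stood above all the others, and the log2 fold change of S280D over S280A was -0.62 ± 0.17 (edgeR adjusted p = 0.0162). Hspb2, a muscle protein whose gene lies head to head with Cryab, had -0.65 ± 0.21 (edgeR adjusted p = 0.0313). Hspb7, Hspb8 and Hspb11, each with 126 reads or fewer in every library, did not pass.

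Bag3 (chromosome 1, 199941160 to 199965191), which joins HSP70 and HSPB proteins in selective autophagy of muscle, held 152 and 164 CPM in S280D, 232 and 276 CPM in S280A, 165 and 176 CPM in WT and 225 and 190 CPM in YFP. Bag1 (chromosome 5, 57254420 to 57267002), which couples HSP70 to the proteasome, held 68.2 and 63.3 CPM in S280D, 83.4 and 93.4 CPM in S280A, 73.9 and 78.1 CPM in WT and 110 and 92.0 CPM in YFP. In both genes the S280D and WT libraries lay below those of S280A and YFP, as in Col1a1. Over S280A the log2 fold change was -0.68 ± 0.13 for Bag3 (edgeR adjusted p = 0.00353) and -0.43 for Bag1 (edgeR adjusted p = 0.0224). Bag6, a chaperone of tail-anchored proteins, fell by 0.64 on the log2 scale, and Bag2, Bag4 and Bag5 did not pass.

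**Figure D3:**
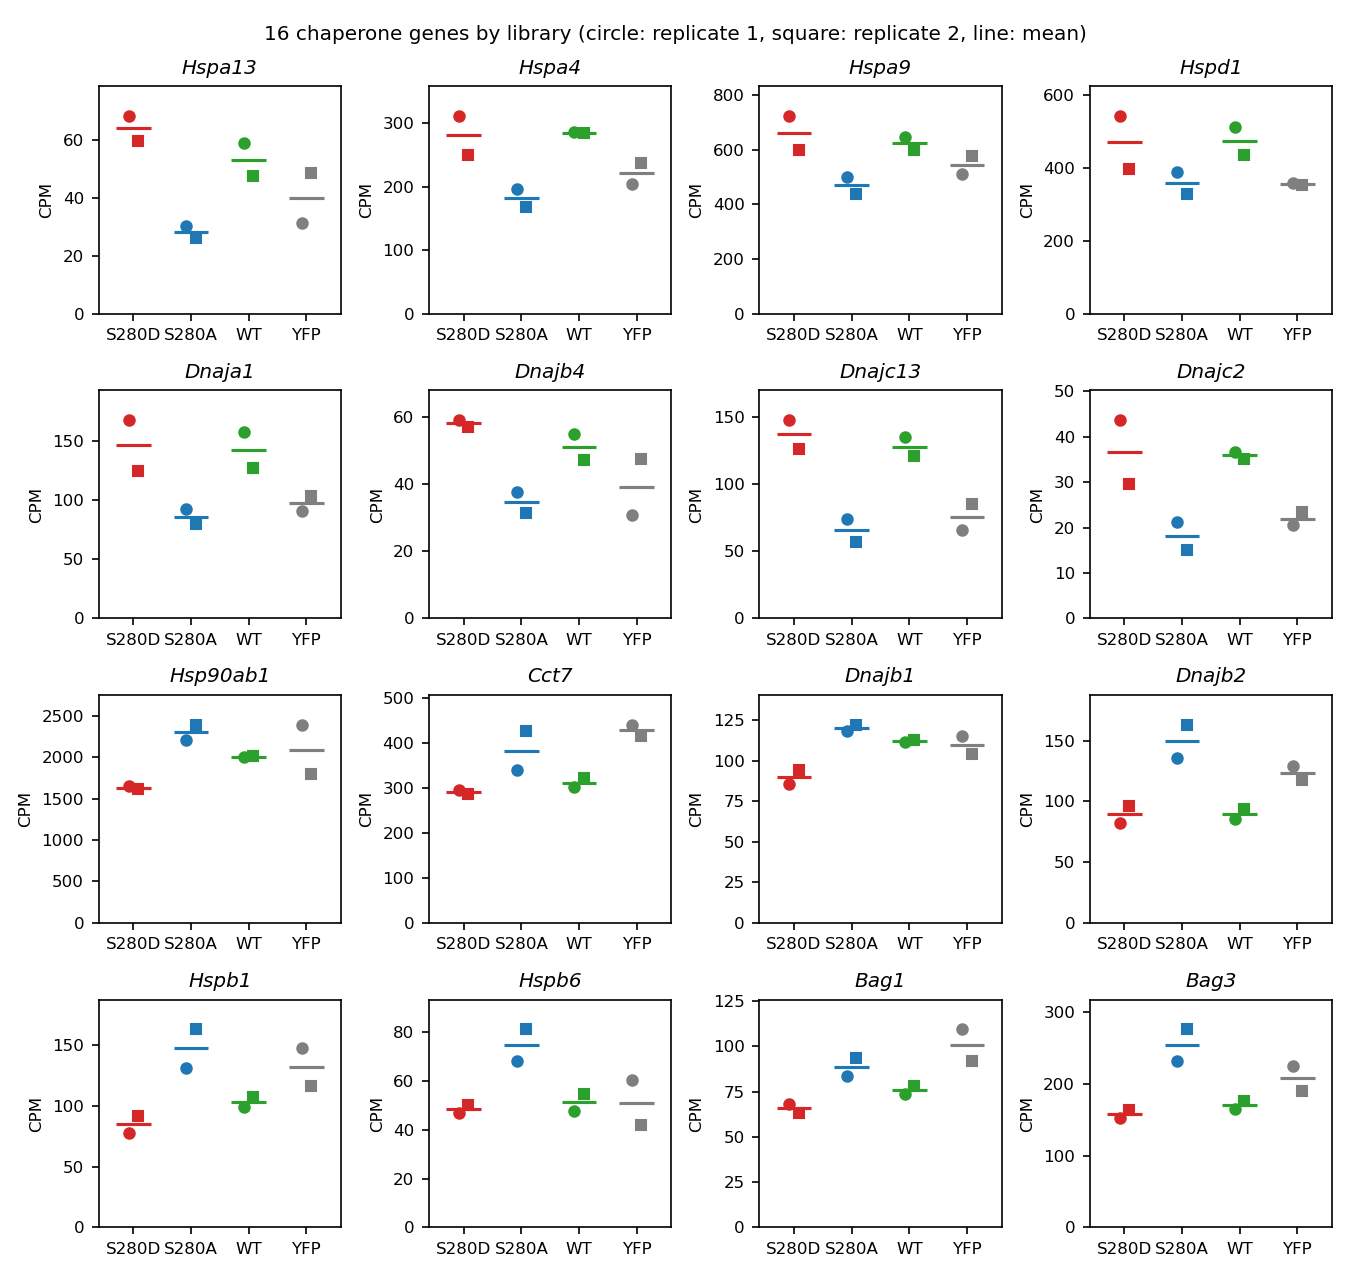
Panels show CPM of 16 members in each library by group, from S280D at the left to YFP at the right, with circles for replicate 1, squares for replicate 2 and a line at the mean. In Dnajc13 the S280D and WT libraries reach 121 CPM and more and the S280A and YFP libraries 85.4 CPM at most, and in Hsp90ab1 both S280D libraries lie below the other 6.

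Hsp90ab1 (chromosome 9, 17817720 to 17823243) held 1649 and 1612 CPM in S280D, 2208 and 2390 CPM in S280A, 2005 and 2008 CPM in WT and 2392 and 1794 CPM in YFP. Both S280D libraries were lower than the other 6, while the YFP libraries spanned the levels of WT and S280A. The log2 fold change over S280A was -0.50 ± 0.14 (edgeR adjusted p = 0.0176), with -0.54 and -0.45 within lanes. Hsp90aa1, without unique reads, had -1.02 ± 0.46 (edgeR adjusted p = 0.0958).

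Hspd1 (chromosome 9, 61680529 to 61690956), the mitochondrial HSP60, held 543 and 398 CPM in S280D, 388 and 328 CPM in S280A, 512 and 434 CPM in WT and 357 and 353 CPM in YFP. Its log2 fold change over S280A was 0.39 ± 0.16, which did not pass (edgeR adjusted p = 0.0649). The S280D libraries differed from each other by more than the lower one differed from S280A replicate 1.

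The 7 measured subunits of CCT, which form a ring with Tcp1, went in both directions. Cct7, Cct3 and Cct5 fell by 0.40, 0.39 and 0.35 on the log2 scale over S280A (edgeR adjusted p = 0.0282, 0.0397 and 0.0374), and Cct8 rose by 0.37 ± 0.13 (edgeR adjusted p = 0.0428). Cct6a had 0.27 ± 0.12, Cct4 0.01 ± 0.10 and Cct2 -0.01 ± 0.11, none of which passed. With lane as a covariate Cct7 alone of the 4 CCT genes that had passed still did (edgeR adjusted p = 0.0447). Cct7 held 295 and 287 CPM in S280D, 340 and 426 CPM in S280A, 301 and 322 CPM in WT and 441 and 416 CPM in YFP. Cct8 held 248 and 198 CPM in S280D, 166 and 179 CPM in S280A, 221 and 201 CPM in WT and 193 and 208 CPM in YFP.

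The counts for S280D against S280A rest on particular libraries. Shares of all features called in the refits below are not given here, so losses of calls cannot be read as particular to the members. Without S280D replicate 1, the deepest library, 6 members were called (Hspa13, Dnajc13, Dnajc21, Dnajb2, Dnajc17 and Bag3), and without S280A replicate 2, the shallowest, 6 were called (Hspa13, Dnajc13, Dnajc21, Dnajb2, Hspb1 and Bag3). With lane as a covariate 23 of the 27 were called. Cct3 (-0.39), Cct5 (-0.35), Cct8 (0.36) and Dnajc7 (0.39) then no longer passed (edgeR adjusted p = 0.0687, 0.0707, 0.0556 and 0.0548), with log2 fold changes about as large as without it.

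Levels were also summed over each family, with no test. HSP70 genes, most of whose CPM came from Hspa9, summed to 1120 and 923 CPM in S280D, 742 and 649 CPM in S280A, 1006 and 949 CPM in WT and 761 and 880 CPM in YFP. The small heat shock protein genes ran the other way, with 147 and 171 CPM in S280D, 235 and 284 CPM in S280A, 174 and 194 CPM in WT and 249 and 188 CPM in YFP. BAG genes summed to 402 and 418 CPM in S280D, 541 and 646 CPM in S280A, 432 and 464 CPM in WT and 570 and 490 CPM in YFP. DNAJA genes summed to 470 and 392 CPM in S280D, 322 and 295 CPM in S280A, 447 and 389 CPM in WT and 353 and 378 CPM in YFP, and DNAJB genes to 469 and 500 CPM in S280D, 588 and 617 CPM in S280A, 511 and 542 CPM in WT and 578 and 507 CPM in YFP. DNAJC genes summed to 880 and 788 CPM in S280D, 743 and 729 CPM in S280A, 848 and 847 CPM in WT and 778 and 758 CPM in YFP. CCT genes summed to 2265 and 2163 CPM in S280D, 2320 and 2452 CPM in S280A, 2345 and 2290 CPM in WT and 2524 and 2253 CPM in YFP. The HSP90, HSP60 and HSP110 sums are those of Hsp90ab1, Hspd1 and Hsph1 given above, nearly or wholly. Because Hspa8 and Hsp90aa1 had few reads and no unique ones, the HSP70 and HSP90 sums may hold little of their RNA and are not family totals. S280D lay above S280A without overlap in the HSP70, DNAJA, DNAJC and HSP60 sums and below it without overlap in the others. All 65 members together summed to 7753 to 9054 CPM over the 8 libraries.

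Against the YFP control, 10 members were called higher in S280D and 6 lower, or 24.6%, where 30.7% of all features were called (17.1% higher and 13.7% lower). The median log2 fold change was -0.05 over the members and -0.02 over all features. The genes that rose were Dnajc28, Dnajc13, Bag4, Dnajc2, Dnajc21, Hspa13, Dnaja1, Dnajb4, Cct6a and Dnajc10. Those that fell were Hspb1, Bag1, Cct7, Dnajb2, Dnajc8 and Bag3. Dnajc13 rose by 0.86 ± 0.16 on the log2 scale (edgeR adjusted p = 0.00424), and Bag1 fell by 0.61 on that scale (edgeR adjusted p = 0.00599). Cct7 fell by 0.56 (edgeR adjusted p = 0.00859) and Hspb1 by 0.64 (edgeR adjusted p = 0.0113).

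Bag4, a silencer of death domain receptors, was the BAG gene that rose over YFP, on few reads. It held 4.33 and 3.82 CPM in S280D, 3.93 and 3.95 CPM in S280A, 3.65 and 3.52 CPM in WT and 1.87 and 2.71 CPM in YFP, with a log2 fold change of S280D over YFP of 0.83 ± 0.27 (edgeR adjusted p = 0.0409). The construct libraries all stood above both YFP libraries. Hsp90ab1 had a log2 fold change of -0.36 ± 0.14 over YFP and Hspd1 0.41 ± 0.16, which did not pass (edgeR adjusted p = 0.0714 and 0.0692). Hspa4 (0.35) and Hspa9 (0.28) did not pass either.

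These calls of S280D against YFP also depended on single libraries. Without S280D replicate 1 there were 2 (Dnajc13 and Bag1), without YFP replicate 1 there were 5, and without WT replicate 1 or 2, which add only to the estimate of the spread, there were 10 each. A fit of only these 4 libraries called 10. With lane as a covariate 2 were called, again Dnajc13 and Bag1. All 16 kept their direction there, with a median size of 0.59 in place of 0.60 and a median SE of 0.19 in place of 0.16 on the log2 scale. Dnajc28 then had 1.58 ± 0.48, Bag4 0.87 ± 0.32, Dnaja1 0.64 ± 0.19 and Hspb1 -0.62 ± 0.19.

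WT against YFP called 3 members higher and 4 lower, or 10.8%, with 19.6% of all features called (12.2% higher and 7.45% lower), and a median log2 fold change of 0.01 over the members and -0.01 over all features. Dnajc13 rose by 0.76 ± 0.16 (edgeR adjusted p = 0.0122), Dnajc2 by 0.71 (edgeR adjusted p = 0.0358) and Dnaja1 by 0.55 (edgeR adjusted p = 0.0382) on the log2 scale. Dnajc22 fell by 0.61 (edgeR adjusted p = 0.0443), and Dnajb2, Cct7 and Bag1 fell by 0.46, 0.46 and 0.41. Dnajc22 held 7.95 and 8.40 CPM in WT and 10.9 and 14 CPM in YFP. All WT libraries were run in the second lane and all YFP libraries in the first, so no value within a lane can be had. S280D and S280A have 1 library in each lane, and from these the fit of 8 libraries estimates the lane term. With lane as a covariate 0 members were called, all 7 kept their direction, and the median SE was 0.25 in place of 0.16 on the log2 scale. The log2 fold changes were then 0.69 ± 0.25 for Dnajc13, 0.78 ± 0.32 for Dnajc2, 0.66 ± 0.25 for Dnaja1, -0.45 for Dnajb2, -0.50 for Dnajc22, -0.28 for Cct7 and -0.27 for Bag1. Without WT replicate 1 there were 0 calls, without WT replicate 2 there was 1 (Dnajc13), without YFP replicate 1 there was 1, and without S280D replicate 1 there were 4.

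S280A against YFP called 0 of the 65 members, with 0.0403% of all features called by edgeR, while 9 members had p under 0.05 before adjustment and DESeq2 also called 0. The 9 included Hspb6, with a log2 fold change of 0.55, Bag3 with 0.29 and Hspa13 with -0.50. The median log2 fold change was -0.08 over the members and -0.02 over all features. Without YFP replicate 1 there were 2 calls. S280D and WT share the YFP libraries with S280A, so their values against YFP are not independent of each other.

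S280A against WT called 5 members higher and 11 lower, or 24.6%, with 26% of all features called (10.1% higher and 15.9% lower). Medians on the log2 scale were -0.03 over the members and 0.01 over all features. Dnajb2 rose by 0.74 (edgeR adjusted p = 0.00804), Bag3 by 0.57 (edgeR adjusted p = 0.0133), Hspb6 by 0.54 and Hspb1 by 0.51 on the log2 scale, with Bag6 at 0.54. Those that fell were Dnajc28, Dnajc2, Dnajc13, Hspa13, Dnajc21, Dnaja1, Hspa4, Dnajb4, Dnaja2, Dnajc10 and Hspa9. Dnajc13 fell by 0.96 (edgeR adjusted p = 0.00775), Hspa13 by 0.91 (edgeR adjusted p = 0.0119), Hspa4 by 0.64 (edgeR adjusted p = 0.0118) and Hspa9 by 0.41 (edgeR adjusted p = 0.0418). No member passed without S280A replicate 2 or without WT replicate 1, and 5 passed without WT replicate 2. With lane as a covariate 7 passed, and all 16 kept their direction, with a median size of 0.60 in place of 0.61 and a median SE of 0.19 in place of 0.16 on the log2 scale. Among those that no longer passed, Bag3 then had 0.53 ± 0.16, Hspb6 0.50 ± 0.21, Hspb1 0.50 ± 0.19 and Hspa9 -0.43 ± 0.16.

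S280D against WT called 0 of the 65, with 0.0403% of all features called by edgeR. The 2 members Dnajb1 with a log2 fold change of -0.32 ± 0.11 and Hsp90aa1 with -1.12 ± 0.44, had p under 0.05 before adjustment, and 0 were called by DESeq2. Dnajb1 held 85.7 and 94.5 CPM in S280D and 111 and 113 CPM in WT, without overlap. The median over the members was -0.06 on the log2 scale.

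In the authors' deposited table, which used its own test, 11 members were called higher and 11 lower in S280D against S280A, where 2466 features were called higher and 1604 lower. The members' counts in the authors' deposited table were 8 and 3 in S280D against YFP (2010 and 1077 features), 2 and 1 in WT against YFP (1404 and 732) and 4 and 7 in S280A against WT (913 and 1748). They were 0 and 0 in S280A against YFP (50 and 21 features) and in S280D against WT (13 and 37). The feature counts are over all 32258 deposited features, of which 12642 met the read minimum asked of the members. Counts of members and of features are therefore not drawn from like sets.

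Genes with a 3-unit heat shock element, whose sequences are printed above, did not move alike in S280D against S280A. Dnaja1 rose by 0.76 on the log2 scale, Hspd1 had 0.39 ± 0.16, Cct4 had 0.01 ± 0.10 and Hsph1 had -0.12 ± 0.12, and only Dnaja1 passed. For Hspa8 the counted locus lies on chromosome 5 and the promoter on chromosome 8. Its -1.13 ± 0.43 therefore cannot be set beside the element. Of the 13 genes with the facing pair, Dnaja1 and Hspa9 rose, Hspb1, Hspb6, Bag3 and Dnajb1 fell, and 7 did not pass. Hspa8 was counted among those 7. Among all features 21.3% rose and 18% fell in that comparison, and differences from this background were not tested. The binding of heat shock factor was not measured.

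Exon length went with the fold change in these libraries. Over all features the Spearman correlation of library deviation with exon length was 0.247 and 0.226 for the S280D libraries, -0.141 and -0.236 for S280A, 0.139 and 0.169 for WT and -0.250 and -0.0607 for YFP. Over the members, in the same library order, it was 0.168 and 0.228 for S280D, -0.280 and -0.213 for S280A, 0.189 and 0.115 for WT and -0.275 and 0.222 for YFP. In S280D against S280A the members that rose had a median exon length of 2405 bases and those that fell 1912 bases, beside 3191 and 1938 bases for all features called.

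**Figure D4:**
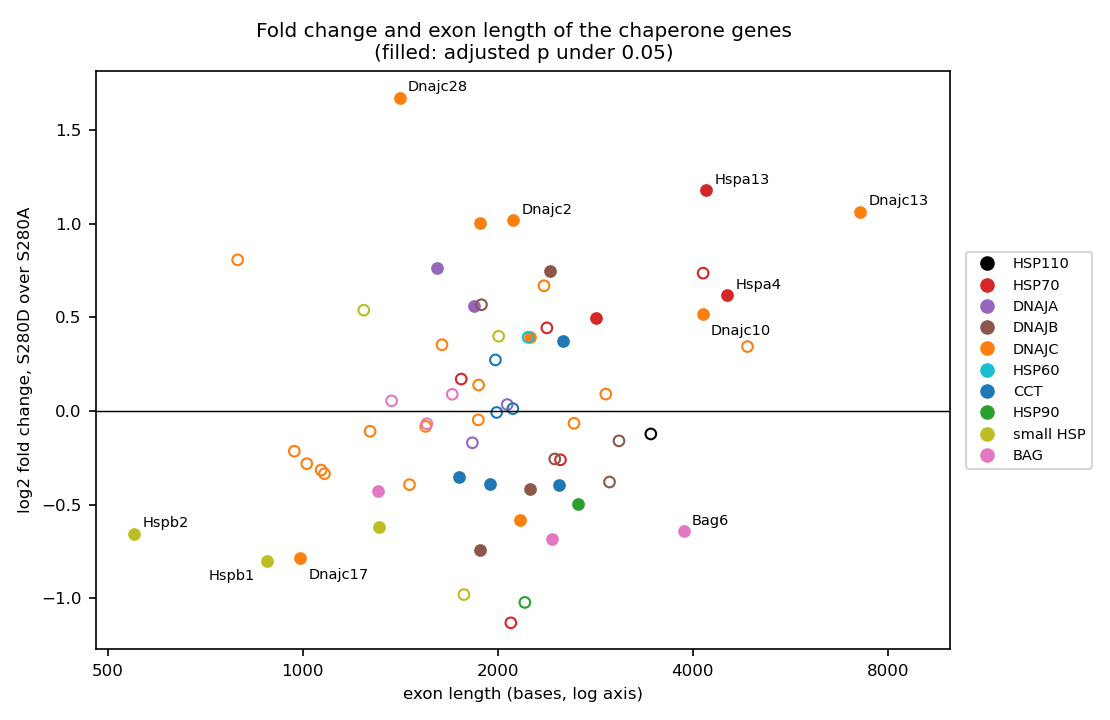
Points are the 65 members, placed by exon length in bases on a log axis and by log2 fold change of S280D over S280A, with colour for the family and filled points for an adjusted p under 0.05. The longest member, Dnajc13 with 7258 exon bases, lies at 1.06, and the shortest, Hspb2 with 549, at -0.65.

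With an offset for exon length 8 members rose and 16 fell in S280D against S280A, against 13 and 14 without it. Dnajc13 then had 0.61 in place of 1.06 on the log2 scale. Hspa4, Hspa9, Dnajc10, Dnajc7 and Cct8 no longer passed (edgeR adjusted p = 0.0655, 0.0582, 0.138, 0.0691 and 0.167). In S280A against WT 5 members were higher and 8 lower with the offset, against 5 and 11. Hspa9 (-0.28), Dnajb4 (-0.47) and Dnajc10 (-0.24) no longer passed there (edgeR adjusted p = 0.131, 0.0558 and 0.168). In S280D against YFP the split was 8 higher and 12 lower with the offset, against 10 and 6, and in WT against YFP it was 5 and 4, against 3 and 4. Shares of all features called with the offset are not given here, so these shifts in counts cannot be read as particular to the members. The part of exon length in the fold changes was not tested further.

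Reads in introns, which can come from RNA not yet spliced, were tested in the same way. Introns made up 14.2% to 15.8% of exon and intron reads in the construct libraries and 10.99% to 11.9% in the YFP libraries. Of the members 53 had enough intron reads, and 0 were called by edgeR in any of the 6 comparisons, where 590 of 12988 features were called in S280D against S280A and 13 members had an unadjusted p under 0.05. Members are thinly covered, with a median of 455 intron reads over all 8 libraries.

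Signs were those of the exon reads for 16 of the 24 exon-called members tested in S280D against S280A. Hspa13 had a log2 fold change in introns of 1.91 ± 0.86 and Hspa9 0.60 ± 0.26, both on the side of their exon values. Dnajb2 had -0.69 ± 0.24 and Bag6 -1.05 ± 0.32, also on the exon side. Dnajc13 had 0.21 ± 0.22 in introns beside 1.06 in exons. Cct5 stood apart with 1.24 ± 0.41 in introns beside -0.35 in exons, and Dnajc2 and Dnajc21 had -0.28 ± 0.34 and -0.23 ± 0.37 beside rises of 1.02 and 1.00 in exons. Dnajb14 and Dnajc19 were read mostly in introns, which gave 95.8% and 90.5% of their reads.

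**Figure D5:**
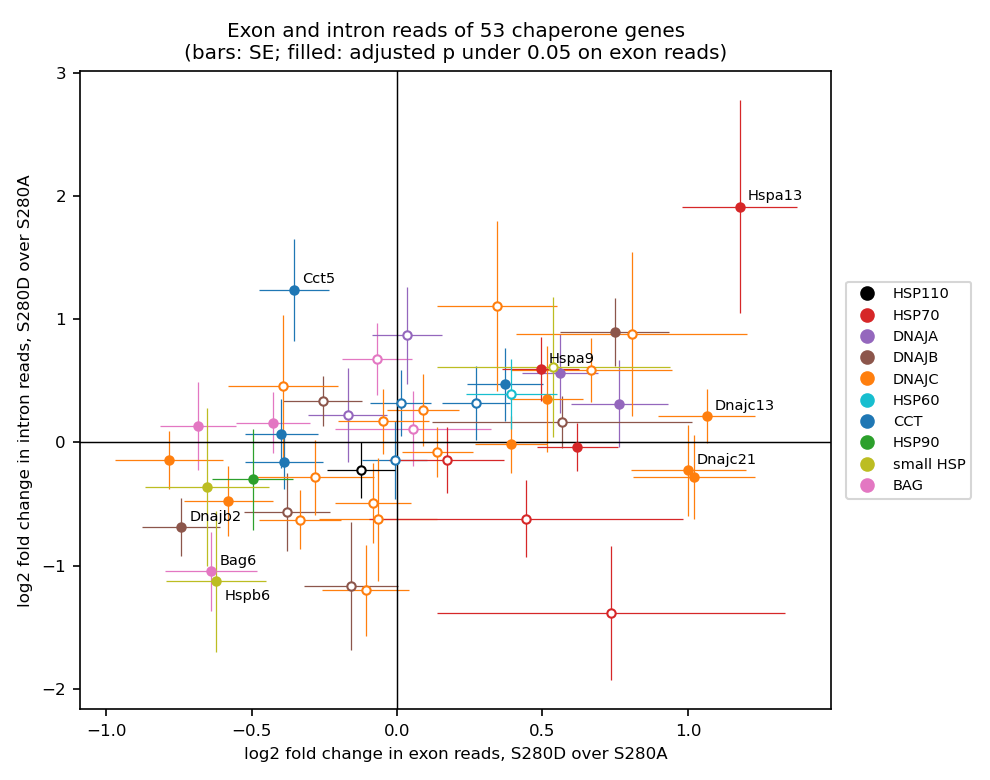
Points are the 53 members tested on both kinds of read, with the log2 fold change of S280D over S280A in exon reads on the horizontal axis and in intron reads on the vertical axis, and bars for the SE. Filled points passed on exon reads. Hspa13 lies highest at 1.91 in introns, and Cct5 lies at the upper left with 1.24 in introns and -0.35 in exons.

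By compartment, 2 of the 9 members of the endoplasmic reticulum rose in S280D against S280A, Hspa13 and Dnajc10, and 0 fell. Among all features 21.3% rose and 18% fell, and with the offset for exon length Dnajc10 no longer passed. Of the 7 members listed above as mitochondrial, a list that may not be complete, Hspa9 rose, Dnajc11 fell and 5 did not pass. In the list of mitochondrial chaperone partners and proteases 2 of 13 rose and 7 fell, with a median log2 fold change of -0.44, where 21.3% of all features rose and 18% fell. Those that rose were Yme1l1, an inner membrane protease, by 1.13 ± 0.32 (edgeR adjusted p = 0.0168) and Clpx, the unfoldase of the matrix protease ClpP, by 0.59 (edgeR adjusted p = 0.0267) on the log2 scale, both named after their values were seen. Lonp1, the matrix protease, fell by 0.56, Clpb, a mitochondrial disaggregase, by 0.63 and Spg7, an inner membrane protease, by 0.50. Against YFP, S280D had 2 higher (Yme1l1 and Hscb) and 5 lower of these 13, where 17.1% of all features were higher and 13.7% lower. S280A against WT had 2 higher and 0 lower, where 10.1% and 15.9% of all features were.

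HSP90 co-chaperones moved in both directions in S280D against S280A, with 4 of 18 higher and 7 lower, beside the 39.3% of all features called. Chordc1 rose by 1.18 (edgeR adjusted p = 0.00189), Ppid, a cyclophilin, rose by 1.05 (edgeR adjusted p = 0.0036) and Aarsd1 fell by 0.70 (edgeR adjusted p = 0.00424) on the log2 scale. S280D against YFP had 4 higher and 5 lower of the 18, beside 30.7% of all features called, and Fkbp4, an immunophilin of steroid receptor complexes, fell by 0.89 (edgeR adjusted p = 0.00159). In S280A against WT 4 were higher and 3 lower, beside 26% of all features called, and in WT against YFP 3 were higher and 2 lower, beside 19.6%.

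The smaller lists are read against the same 39.3% of all features. Of 7 HSP70 co-chaperones outside the rule, 2 rose and 2 fell in S280D against S280A, and those that fell were Hspbp1, a nucleotide exchange factor, with a log2 fold change of -0.92, and Sgta with -0.63. Of 9 partners of CCT 1 rose and 2 fell, with Pdcl up by 0.98 and Tcp1 itself among those that did not pass. Of 5 heat shock factors and regulators tested, Hsf2 rose by 0.88 ± 0.20 (edgeR adjusted p = 0.00799), Hsf4 fell by 0.67 (edgeR adjusted p = 0.0293), and Hsf1, the main stress regulator, had -0.31 and did not pass (edgeR adjusted p = 0.117). Cryab, the small heat shock protein that neighbours Hspb2, fell by 0.68 ± 0.16 (edgeR adjusted p = 0.00853).

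The 4 genes left out by name did not move together. Dnajb9, a J-domain protein of the endoplasmic reticulum, held 14.8 and 13.6 CPM in S280D, 7.51 and 5.48 CPM in S280A, 14.9 and 12.5 CPM in WT and 5.21 and 7.87 CPM in YFP, and rose by 1.13 over S280A on the log2 scale (edgeR adjusted p = 0.00519). Hspa5, the HSP70 of that compartment, fell by 0.32 (edgeR adjusted p = 0.0448), and Dnajb11 and Dnajc3 did not pass. Of the 16 endoplasmic reticulum chaperones listed, these 4 among them, 1 was higher and 7 were lower, where 21.3% of all features rose and 18% fell.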

How the data were processed

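The authors deposited a single table that holds raw counts of reads in exons (total and unique) and in introns beside RPKM for every gene and library, per the file headers. Their own pairwise tests fill further columns with false discovery p-values and a signed fold score, also as deposited. The genome build was Rnor_6.0, per the submitters' processing notes. Aligner and counting strand: not given in the sources used here. Libraries were paired-end and strand-specific with 15 cycles of PCR, per the labels' protocols.

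Tests of total exon reads used edgeR 4.0.16 (R 4.3.3), filterByExpr, TMM scaling and the quasi-likelihood test over all 8 libraries, 1 coefficient per group and 4 residual degrees of freedom. All 6 contrasts were two-sided, adjusted by Benjamini-Hochberg over 12407 features, with a threshold of 0.05. The biological coefficient of variation was 0.133. CPM are TMM-scaled, and within-lane log2 differences used a pseudocount of 0.5 CPM. RPKM are the authors' values and were used only for levels between genes. Of the deposited p-values and folds only the counts of called members were taken. Promoters came from RefSeq (GRCr8) and no coordinate was carried between builds. The steps were tested on simulated data.

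The members and lists were chosen with earlier results of these data known. By rule, the 5 called members that rose most and the 5 that fell most in each comparison are named, where their mean is at least 1 CPM, and a set of well-known members whatever their values. The remaining called members, and Dnajc19 and Dnajb14 among others, were named after their values were seen. A gene that the rule names is not reported here. Alternatives were RLE size factors, no filter, DESeq2 1.42.0, a minimum of 1 CPM in 2 libraries, only the 4 libraries compared, a replicate block, lane as a covariate, unique exon reads, intron reads, an exon-length offset by loess, and each library left out, after which the lone library is assumed to vary like the other groups. The crossed replicate numbers were chosen after seeing the data. Libraries of a group differed by more than counting noise, so neither was a re-read of the other, but this does not show separate cultures. Reads carry no molecular identifiers, so PCR copies are counted as separate reads.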

Additional observations from a re-analysis of the deposited data

How the results depend on the processing

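The 66 results of called members gave 917 values under the alternatives, of which 636 kept direction and threshold, 262 kept direction only and 19 reversed. All 19 reversals were on intron reads, and the cause was not tested; the log2 fold changes in intron reads follow in parentheses. For S280D against YFP they were Bag1 (0.41), Cct6a (-0.11), Cct7 (0.20), Dnajc10 (-0.0128) and Dnajc2 (-0.12), and for WT against YFP Bag1 (0.26), Cct7 (0.0805) and Dnajc22 (0.0061). For S280D against S280A they were Bag1 (0.16), Bag3 (0.13), Cct5 (1.24), Cct7 (0.0694), Dnajc2 (-0.28), Dnajc21 (-0.23), Dnajc7 (-0.0167) and Hspa4 (-0.0371), and for S280A against WT Bag3 (-0.0946), Dnajc2 (0.0649) and Dnajc21 (0.38).

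Shares of all features called under most alternatives are not given here, so moves in member counts cannot be read as particular to the members. Counts of called members moved by over 1.5 times in these cases. On intron reads 0 members were called in S280D against S280A (27 on exon reads), S280D against YFP (16), WT against YFP (7) and S280A against WT (16), where fewer members and fewer reads were tested. With lane as a covariate the counts were 2 for S280D against YFP, 0 for WT against YFP and 7 for S280A against WT, while every one of the 16, 7 and 16 members kept its direction and the median SE was 0.19, 0.25 and 0.19 in place of 0.16 in each. A fit of only the 4 libraries compared called 10 in S280D against YFP. Without a filter 12 were called in WT against YFP and 1 in S280A against YFP. Leaving out a library gave 6 to 29 for S280D against S280A, 2 to 19 for S280D against YFP, 0 to 8 for WT against YFP, 0 to 2 for S280A against YFP, 0 to 17 for S280A against WT and 0 for S280D against WT.

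Replicate numbers correlated between groups at -0.17 to 0.21 over 2 pairs and were not taken to pair libraries. With the replicate block 27, 12, 6, 0, 15 and 0 members were called in S280D against S280A, S280D against YFP, WT against YFP, S280A against YFP, S280A against WT and S280D against WT. With crossed numbers S280D against YFP called 11 and S280A against YFP 0. With 2 libraries a group and 14018785 reads in the smallest, small changes of low genes were not detectable at this depth.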
